A study of Mus musculus with 2 samples.

Results

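Tshz2, Cyp4x1, Mapk14, Rab40b, Ptbp3 and Gm17660 are 6 genes, of 30223 in the table, whose level differed at least 2-fold between a knock-in and a wild-type hippocampus library in several cell types. Tshz2 was lower in the knock-in library and the other 5 genes were higher, and each gene kept that direction in all 11 cell classes compared. The genes were chosen on these measured differences, so every ratio between the libraries given here is a description and carries no test. They are the smaller recurrent differences, since 4 further genes (Abl1, Hdc, Gm14216 and Sec22b) were set aside as the strongest ones.

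Single-cell RNA profiles came from the hippocampus of C57Bl.6/J mice, either wild-type controls or homozygous for the knock-in allele Pigv341E. Pigv encodes a mannosyltransferase that works in the assembly of the glycosylphosphatidylinositol anchor. Cells of 8 hippocampi from 4 mice per genotype were pooled into 1 droplet library each, so neither genotype has a replicate, and effects of genotype and of library cannot be told apart. The labels give neither the age nor the sex of the mice, and both groups share strain, cold mechanical dissociation and sequencing lane.

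The 6 genes belong to different families. Tshz2 encodes a teashirt-type zinc finger and homeobox transcription factor, and Cyp4x1 a cytochrome P450 of family 4 described in brain. Mapk14 encodes the p38 alpha kinase, which is activated by the kinases Map2k3 and Map2k6 under stress and cytokine signals and acts in neurons and glia. Rab40b is a small GTPase whose SOCS box recruits the Cul5 ubiquitin ligase, Ptbp3 is a polypyrimidine tract RNA-binding protein that regulates splicing, and Gm17660 is a predicted gene with no role named here.

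The genes lie on 5 chromosomes of GRCm38 in the GENCODE M21 annotation, which calls all 6 protein coding. Tshz2 spans chr2:169633013-170071816 on the plus strand and Mapk14 spans chr17:28691329-28748406 on the plus strand. On the minus strand lie Cyp4x1 at chr4:115106323-115134281, Ptbp3 at chr4:59471868-59549364, Rab40b at chr11:121356125-121388251 and Gm17660 at chr5:104070064-104077608. Pigv itself lies on the chromosome of Cyp4x1 and Ptbp3, at chr4:133660387-133672647.

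The sequences before the starts of genes that differ in opposite directions are shown so that they can be compared. RefSeq promoters of GRCm38.p6 matched 4 of the 6 genes. Each line gives the 250 bases before the start (for Mapk14, the first of its starts), 5′ to 3′ along the gene's strand. Capitals mark the GC box (GGGCGG or CCGCCC) and the CCAAT box (CCAAT or ATTGG), searched on both strands. The windows are chr2:169632259-169632508 for Tshz2, chr17:28691092-28691341 for Mapk14, chr11:121388252-121388501 for Rab40b and chr5:104077609-104077858 for Gm17660, the last 2 on the minus strand.
Tshz2: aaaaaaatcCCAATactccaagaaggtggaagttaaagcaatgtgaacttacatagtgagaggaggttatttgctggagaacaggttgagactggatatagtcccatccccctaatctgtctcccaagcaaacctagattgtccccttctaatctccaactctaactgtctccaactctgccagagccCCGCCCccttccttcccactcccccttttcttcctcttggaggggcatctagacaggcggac
Mapk14: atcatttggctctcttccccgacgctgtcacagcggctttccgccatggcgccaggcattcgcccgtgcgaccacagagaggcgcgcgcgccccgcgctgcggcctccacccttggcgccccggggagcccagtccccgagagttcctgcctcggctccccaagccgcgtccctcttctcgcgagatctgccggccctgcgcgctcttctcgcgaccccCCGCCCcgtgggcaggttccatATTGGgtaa
Rab40b: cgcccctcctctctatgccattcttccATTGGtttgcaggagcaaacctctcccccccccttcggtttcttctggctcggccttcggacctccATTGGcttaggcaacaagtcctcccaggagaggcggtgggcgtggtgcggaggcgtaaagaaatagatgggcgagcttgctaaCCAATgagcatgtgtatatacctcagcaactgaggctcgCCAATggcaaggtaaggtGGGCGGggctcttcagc
Gm17660: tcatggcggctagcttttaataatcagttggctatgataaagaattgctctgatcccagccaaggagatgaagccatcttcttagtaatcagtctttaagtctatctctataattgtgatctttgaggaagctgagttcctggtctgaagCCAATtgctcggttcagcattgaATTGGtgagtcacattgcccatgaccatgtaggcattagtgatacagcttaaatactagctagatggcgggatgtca

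The 4 sequences differ in composition. Mapk14 has 30 CG pairs in its window, Rab40b 11, Gm17660 3 and Tshz2 2, against a median of 6 over 32817 promoters. A GC box is present in Tshz2, Mapk14 and Rab40b, 1 copy each, and in 32.7% of all promoters. The CCAAT box occurs 4 times in Rab40b, 2 times in Gm17660 and 1 time each in Tshz2 and Mapk14, and 33.8% of all promoters hold it. Neither a TATA box (TATAAA or TTTATA, 12.4% of promoters) nor the cAMP response element (TGACGTCA, 1.55%) was found in the 4 windows. Tshz2, the lower gene, and Mapk14 had the same counts of all 4 motifs.

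The deposited values are whole numbers and were treated as corrected for depth, so the depth of sequencing is unknown. A level is the summed value of a gene in a set of cells per 10000 of the summed values of all genes in that set. The log2 ratio is the knock-in over the wild-type level with 0.1 added to both, which understates differences of low levels. There were 7094 wild-type and 8836 knock-in cells, whose totals had medians of 8631 (4846 to 13545) and 9608 (5851 to 14501). Knock-in cells had a median of 3736 detected genes and wild-type cells 3122, and the median share of mitochondrially encoded values was 0.219% and 0.123%. The part of these differences in the results was not tested. Ratios in bins of cells by detected genes are described further on. Cells were clustered without the 6 genes, and classes named from markers end in "-like". The 28 barcodes found in both libraries altered no ratio or count of classes below by more than 1.5-fold when their cells were left out. Pigv was at 0.0886 and 0.1 per 10000 in wild-type and knock-in cells, which does not check the labels because the allele need not alter the level.

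By the size rule used here, a gene is past the rule in a class if it differs at least 2-fold, its level reaches 1 per 10000 in either library, and no fewer than 10% of the class's cells in that same library have a value above 0. The 2-fold limit applies to the log2 ratio with 0.1 added to both levels. Over all cells, Rab40b and Gm17660 were past the rule, with Hdc and Gm14216, among the 0.193% of 2075 genes that were higher. The 0.0964% that were lower were Abl1 and Sec22b. Tshz2, Cyp4x1, Mapk14 and Ptbp3 were past it only within classes, Cyp4x1 because its level over all cells stayed under 1. The median log2 ratio of the 2075 genes was -0.08, with 5 and 95% points of -0.27 and 0.28. In the knock-in library Gm17660 was past the rule in 11 of 11 classes, Mapk14 and Rab40b in 5 each, Cyp4x1 in 4 and Ptbp3 in 3, and Tshz2 was lower past the rule in 6. In these classes Gm17660, Rab40b, Cyp4x1 and Ptbp3 reached the level of 1 through the knock-in library alone. Tshz2 reached it through the wild-type library alone, and Mapk14 in both libraries. Of 5098 genes tested in at least 1 class, 0.177% were higher in 3 or more classes and 0.0588% lower in 6 or more. The rule of choice used this contrast, so nothing is read from these shares.

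**Figure D1:**
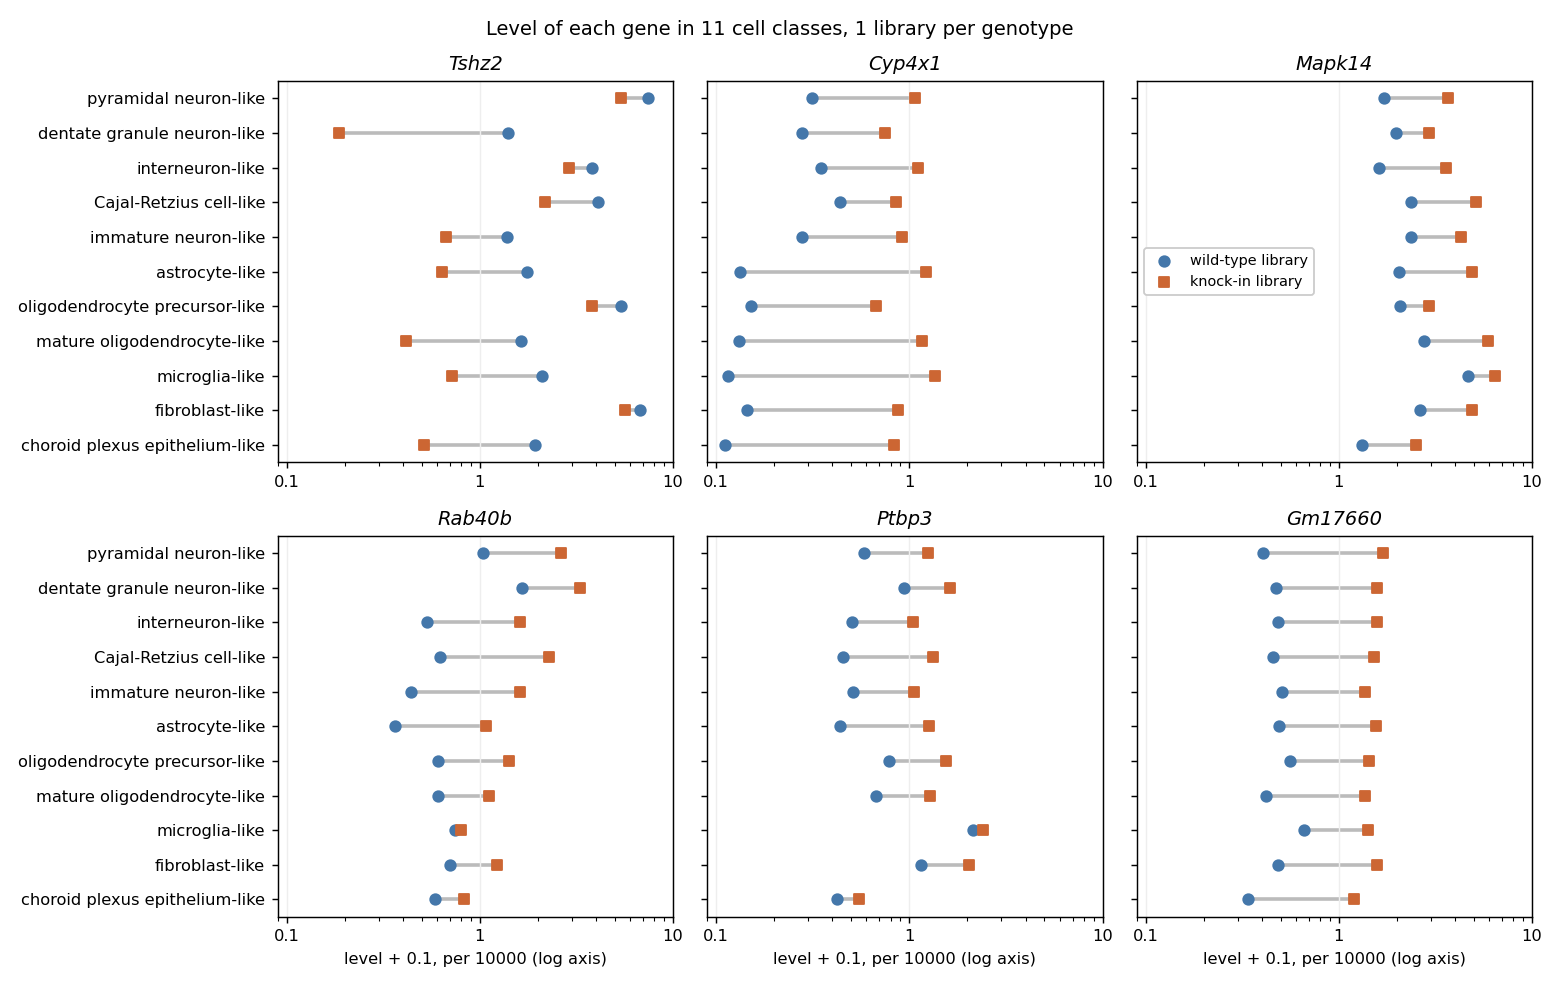
Level of each of the 6 genes in 11 cell classes (horizontal log axis, level plus 0.1 per 10000), with 1 circle for the wild-type library and 1 square for the knock-in library joined by a line. The squares of Tshz2 lie left of the circles in all 11 classes and those of the other 5 genes lie right of them.

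Tshz2 was low in some classes and high in others, and the 5 classes of highest level held the 5 smallest ratios, though some of these classes held clusters in which it was far lower in the knock-in library. In wild-type cells its level was 7.34 per 10000 in pyramidal neuron-like, 6.66 in fibroblast-like and 5.29 in oligodendrocyte precursor-like cells, and 5.25, 5.52 and 3.71 in the same classes of the knock-in library. Their log2 ratios were -0.47, -0.27 and -0.50, all short of 2-fold. The pyramidal neuron-like class pools clusters of unlike Tshz2 level that made up different shares of it in the 2 libraries. The cluster led by 4921539H07Rik, Gm10754 and Galntl6, with 753 wild-type and 766 knock-in cells, had levels of 1.32 and 0.0540 per 10000 (log2 ratio -3.21). That led by Nectin3, Ccbe1 and Trhde, with 314 and 369 cells, had 1.23 and 0.107 (-2.69). A cluster of high Tshz2, described further on, held 124 of the 1428 wild-type but 459 of the 1921 knock-in cells of the class. In the whole class 81.5% (79.4% to 83.5%) of wild-type cells but 20.5% (18.7% to 22.3%) of knock-in cells had a value above 0. The class ratio is thus smaller in size than that of most of its cells. Cajal-Retzius-like cells (3.98 and 2.07) and interneuron-like cells (3.72 and 2.78) came next in the wild-type library, and these 5 classes were also the 5 highest in the knock-in library. Interneuron-like cells too were mixed. Their cluster led by Kcnmb2, Dlx6os1 and Col19a1, with 157 and 255 cells, was at 1.81 and 0.385 (log2 ratio -1.98), and that led by 6330411D24Rik, Lef1 and Otx2os1, with 82 and 224 cells, at 7.396 and 5.57 (-0.40). With 1 library per genotype there is no spread over samples by which neighbours in these orders could be separated.

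The other 6 classes had wild-type Tshz2 levels of 2.00 per 10000 or less, and in all 6 the gene was lower past the rule. Dentate granule neuron-like cells stood at the far end, with wild-type and knock-in levels of 1.30 and 0.0878 per 10000 and a log2 ratio of -2.90. Values above 0 covered 72.1% of the wild-type cells of that class (exact Clopper-Pearson 95% interval 69.7% to 74.4%), but 7.45% of its knock-in cells (6.15% to 8.92%). These intervals, like all others here, cover counting error only. With all cells thinned at random to totals of 1000 the shares were 12.4% (10.8% to 14.2%) and 0.621% (0.284% to 1.17%). Thinning makes the deposited totals equal but not the unknown depth. The thinned shares follow the levels on which the gene was chosen, so they are a description and not a check. Mature oligodendrocyte-like cells were at 1.54 and 0.316 per 10000, choroid plexus epithelium-like cells at 1.83 and 0.418, and microglia-like cells at 2.00 and 0.616. Astrocyte-like cells (1.66 and 0.538) and immature neuron-like cells (1.28 and 0.567) completed the 6.

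On the scale of differences rather than ratios, the classes were closer together. For Tshz2 the knock-in minus wild-type difference lay between -2.09 and -0.72 per 10000 over the 11 classes, with a median of -1.22. Of 37 clusters, 27 had at least 50 cells in each library, and Tshz2 was lower in all 27, with a median difference of -1.26 and quartiles of -1.501 and -1.13. The wild-type library had no cluster below 1.23 per 10000, whereas the lowest knock-in cluster was at 0.0316. Across the 11 classes the wild-type and knock-in levels had a Pearson correlation of 0.96, a description over classes that share their 2 libraries. The highest class exceeded the lowest by 5.71-fold in wild-type and by 62.9-fold in knock-in cells.

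Wild-type levels of Tshz2 reached 10 per 10000 in 5 clusters, and the libraries were close in 2 of them and apart in the others. A cluster led by Vwc2l, Cntn6 and Sntb1, which stayed unnamed, was at 50.9 per 10000 in 86 wild-type cells and 50.3 in 104 knock-in cells. The pyramidal neuron-like cluster led by AC060761.1, Sgcz and Vwc2l was at 35.0 and 34.4. In both the difference was -0.66 per 10000, the smallest 2 of the 27 clusters.
In contrast, the pyramidal neuron-like cluster led by Unc5d, Efna5 and Fhod3 was at 31.7 per 10000 in 124 wild-type cells and 12.2 in 459 knock-in cells. Among these wild-type cells 87.1% reached a value of 5 (79.9% to 92.4%), against 34.6% among the knock-in ones (30.3% to 39.2%). The share at 5 or more was also lower in the unnamed cluster led by Gm42705, Fn1 and Gm6260, at 83.2% (76.1% to 88.9%) and 59.7% (52.5% to 66.6%), with levels of 19.6 and 16.4. In the pyramidal neuron-like cluster led by Gm28928, Rai14 and Cdh18 it was 56.2% (46.2% to 65.9%) and 31.3% (25.2% to 37.8%), with levels of 12.9 and 6.68. The difference of -19.5 per 10000 in the cluster led by Unc5d was the largest of the 27, and the number of cells in that cluster also differed between the libraries. Whether that cluster holds the same cells in both libraries was not tested.

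Over all cells, the shares of cells at low values of Tshz2 differed between the libraries far more than the share at high ones. The share at 5 or more was nonetheless lower in the high clusters led by Unc5d, by Gm42705 and by Gm28928, as given above. In the high cluster led by Vwc2l, Cntn6 and Sntb1 it was 98.8% and 95.2%. In that led by AC060761.1, Sgcz and Vwc2l it was 100% in both libraries. Tshz2 was above 0 in 71.8% (70.7% to 72.8%) of all wild-type and 25.2% (24.3% to 26.2%) of all knock-in cells, and at 5 or more in 12.3% and 10.8%. The last 2 shares rest on clusters of unequal size in the libraries, among them the 124 and 459 cells of the cluster led by Unc5d. Values of 1 were found in 26.6% and 6.75% of cells and values of 2 in 19.8% and 4.43%. Cells with 5 or more held 71.3% of the summed Tshz2 values among wild-type and 90.4% among knock-in cells. No class is known to lack every one of the 6 genes, so the level of free RNA was read from choroid plexus markers. Their summed level was 1426 and 1531 per 10000 in wild-type and knock-in choroid plexus epithelium-like cells. It was 0.801 to 3.71 and 0.934 to 6.36 in the other 10 classes, with no marker of the 7 at 0 in 6 of these classes in both libraries. The part of free RNA in the low values of the 6 genes was not tested.

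**Figure D2:**
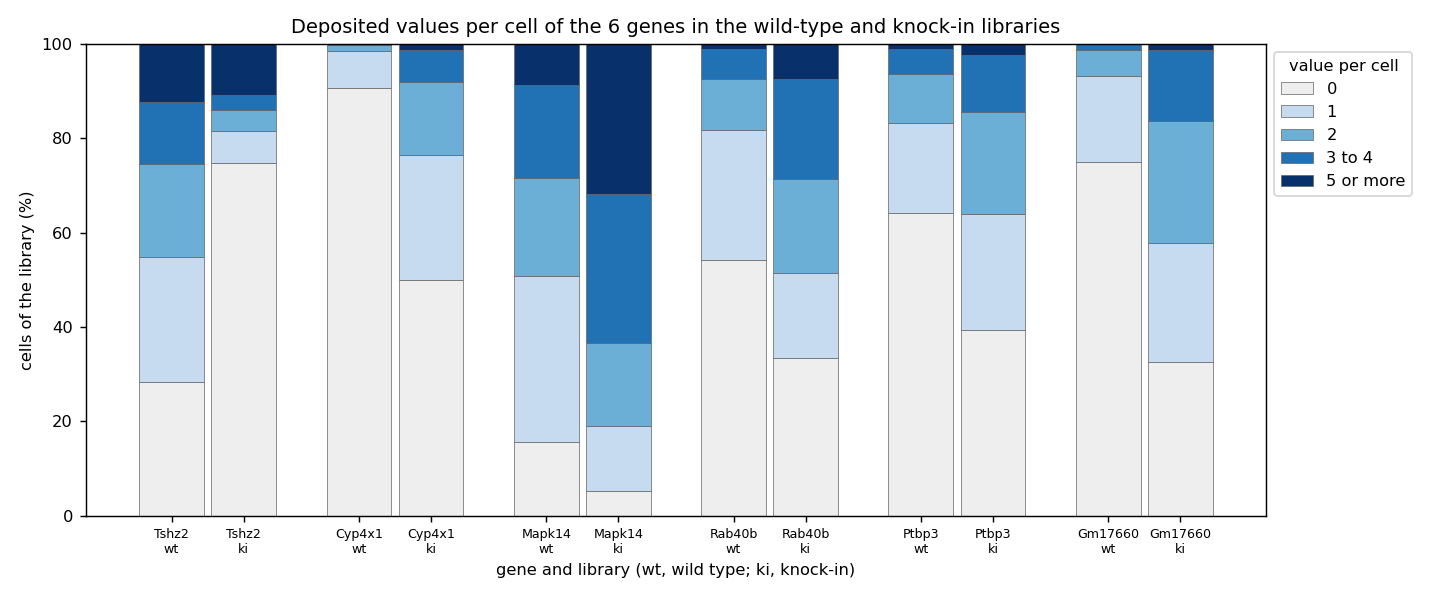
Share of cells (vertical axis, percent) of each library by the deposited value of each gene, from 0 (lightest) to 5 or more (darkest). For Tshz2 the share at 0 is 28.2% among wild-type and 74.8% among knock-in cells while the share at 5 or more is 12.3% and 10.8%.

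Cyp4x1 was close to 0 in wild-type glia and was found at a like level in all classes of the knock-in library. Over all cells its wild-type level was 0.127 and its knock-in level 0.946 per 10000, a log2 ratio of 2.21, with values above 0 in 9.42% (8.75% to 10.1%) and 50.1% (49.0% to 51.1%) of cells. Wild-type levels were highest in neurons, at 0.338 in Cajal-Retzius-like, 0.25 in interneuron-like, 0.213 in pyramidal neuron-like, 0.178 in immature neuron-like and 0.177 in dentate granule neuron-like cells. The 6 non-neuronal classes were all at 0.0517 or less.

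Knock-in Cyp4x1 levels did not follow that order. They were highest in microglia-like cells, at 1.25 per 10000 against 0.0154 in wild-type cells, a log2 ratio of 3.55. The share above 0 in that class was 0.902% in wild-type (0.332% to 1.95%) and 51.0% in knock-in cells (47.7% to 54.4%). Astrocyte-like cells were at 0.0326 and 1.12 and mature oligodendrocyte-like cells at 0.0311 and 1.07. These 3 classes and interneuron-like cells (0.25 and 1.01) are the ones past the rule, and the only ones in which the level reached 1 in either library. Since no wild-type class exceeded 0.338, the gene could be past the rule only through the knock-in library. Without the limits on level and detection, the log2 ratio reached the 2-fold limit in 10 of 11 classes. The exception was Cajal-Retzius-like cells, at 0.338 and 0.751, with a log2 ratio of 0.96. That ratio includes the fixed amount added to both levels, and the levels without it differed more than 2-fold.

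The highest class exceeded the lowest 31.2-fold in wild-type cells and 2.19-fold in knock-in cells for Cyp4x1, and the Pearson correlation between the 2 sets of 11 class levels was -0.19. The differences ran from 0.41 per 10000 in Cajal-Retzius-like to 1.24 in microglia-like cells. In the 27 clusters the gene was higher in all 27 and past the rule in 12. Thinned to a total of 1000, 1.14% of wild-type and 8.86% of knock-in cells had a value above 0.

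Gm17660 was the most even of the 6 genes across classes, with 2.35-fold between the highest and lowest wild-type class and 1.45-fold between the knock-in ones. Its wild-type and knock-in levels were 0.373 and 1.45 per 10000, a log2 ratio of 1.71, and 25.1% (24.1% to 26.1%) and 67.4% (66.4% to 68.3%) of cells had a value above 0. Wild-type class levels ran from 0.238 in choroid plexus epithelium-like to 0.559 in microglia-like cells, and knock-in levels from 1.10 in choroid plexus epithelium-like to 1.60 in pyramidal neuron-like cells. The 2 ranges do not overlap. Pyramidal neuron-like cells had the largest log2 ratio (2.06, levels 0.307 and 1.60) and microglia-like cells the smallest (1.11, levels 0.559 and 1.32). Every wild-type class was under 1 per 10000 and every knock-in class over it, so this gene too was past the rule through the knock-in library alone.

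Gm17660 differed little between the libraries in 2 clusters. The microglia-like cluster led by Cst3, Tyrobp and Tmsb4x, with 168 wild-type and 119 knock-in cells, was at 1.03 and 1.09 per 10000. An unnamed cluster led by the mitochondrially encoded mt-Rnr2, mt-Rnr1 and mt-Co1, with 193 and 149 cells, was at 0.819 and 1.02. These were the smallest differences of the 27 clusters, and the gene was past the rule in 24. In the same 2 clusters Ptbp3 was lower in the knock-in library, at 1.18 and 0.611 and at 0.883 and 0.499, while Mapk14 was higher, at 3.24 and 5.64 and at 3.21 and 5.99. The mitochondrially led cluster was also the 1 cluster with lower Rab40b, at 1.39 and 1.30. The part of mitochondrially encoded values in these differences was not tested.

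Mapk14, the p38 alpha gene, had a deposited value above 0 in most cells of both libraries and was highest in microglia-like cells in both. Its wild-type and knock-in levels were 2.21 and 4.18 per 10000, a log2 ratio of 0.89, and 84.5% (83.6% to 85.3%) and 94.7% (94.3% to 95.2%) of cells had a value above 0. The share with a value of 5 or more was 8.68% and 31.8%. Thinned to a total of 1000, the shares above 0 were 19.3% and 33.8%. Among cells with the fewest detected genes, 97.7% of wild-type and 99.4% of knock-in cells were above 0. In the other bins of detected genes, described further on, these shares were at most 82.1% and 94.9%. The part of the correction for depth in these shares was not tested. Microglia-like cells were at 4.55 and 6.29 and mature oligodendrocyte-like cells at 2.67 and 5.81. Choroid plexus epithelium-like cells were the lowest in both libraries, at 1.21 and 2.40.

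Mapk14 was past the rule in 5 neuronal and glial classes. They were astrocyte-like cells (1.95 and 4.81, log2 ratio 1.26), interneuron-like cells (1.51 and 3.50, 1.16), Cajal-Retzius-like cells (2.27 and 5.003, 1.11), pyramidal neuron-like cells (1.61 and 3.55, 1.10) and mature oligodendrocyte-like cells (1.09). The next class, choroid plexus epithelium-like cells, lay just outside at 0.93. Microglia-like cells had the smallest log2 ratio, 0.46, although their difference of 1.74 per 10000 was within the range of 0.87 to 3.14 over the classes. In either library 98.5% of microglia-like cells had a value above 0, and 29.5% and 52.1% had 5 or more. The class levels of the 2 libraries had a Pearson correlation of 0.82 over the 11 classes.

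Rab40b was highest in dentate granule neuron-like and pyramidal neuron-like cells of both libraries. Dentate granule neuron-like cells were at 1.55 and 3.19 per 10000 and pyramidal neuron-like cells at 0.937 and 2.54, with values above 0 in 72.6% and 95.4% of the former and 56.9% and 92.1% of the latter. The log2 ratio of the dentate class, 0.99, was just short of the 2-fold limit, and that of pyramidal neuron-like cells was 1.35. The other classes past the rule were immature neuron-like (0.339 and 1.52, log2 ratio 1.89), Cajal-Retzius-like (0.525 and 2.20, 1.88), interneuron-like (0.433 and 1.51, 1.60) and oligodendrocyte precursor-like cells (0.512 and 1.31, 1.21). Astrocyte-like cells, at 0.263 and 0.980, differed by a log2 ratio of 1.57 but missed the level of 1.

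Taken as 1 class, microglia-like cells were near equal in Rab40b, at 0.647 and 0.697 per 10000, and its share above 0 was 46.3% (42.5% to 50.2%) in wild-type and 36.5% (33.2% to 39.8%) in knock-in cells. The share and the level thus ran in opposite directions there. Within the class all 3 clusters had a higher knock-in level, with log2 ratios below 1 in each. The cluster led by P2ry12, Cx3cr1 and Gpr34 was at 0.0716 and 0.238 (log2 ratio 0.98, 256 and 399 cells), that led by Inpp5d, Arhgap45 and Dock8 at 0.831 and 1.07 (0.32, 241 and 346 cells), and that led by Cst3, Tyrobp and Tmsb4x at 1.47 and 1.53 (0.05). The last, of highest Rab40b, held 168 of 665 wild-type cells of the class but 119 of 864 knock-in ones. Of the 11 classes microglia-like cells ranked 3 by wild-type level and last by knock-in level. Fibroblast-like cells (0.599 and 1.12), mature oligodendrocyte-like cells (0.508 and 1.02) and choroid plexus epithelium-like cells (0.486 and 0.731) lay between. Of 27 clusters, 26 had a higher level in the knock-in library and 16 were past the rule.

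Ptbp3 was highest in microglia-like and then in fibroblast-like cells of both libraries. Microglia-like cells were at 2.04 and 2.30 per 10000, a log2 ratio of 0.17, with values above 0 in 67.8% and 67.5% of cells. Fibroblast-like cells were at 1.05 and 1.94 and dentate granule neuron-like cells at 0.843 and 1.53, both short of 2-fold. Past the rule were Cajal-Retzius-like (0.356 and 1.22, log2 ratio 1.54), astrocyte-like (0.336 and 1.16, 1.53) and pyramidal neuron-like cells (0.486 and 1.15, 1.09). Over all cells the levels were 0.717 and 1.32, a log2 ratio of 0.80, and the shares above 0 were 35.9% (34.8% to 37.0%) and 60.7% (59.6% to 61.7%). Interneuron-like cells (0.407 and 0.946) and immature neuron-like cells (0.410 and 0.957) differed 2-fold below the level limit, and choroid plexus epithelium-like cells were at 0.324 and 0.452. Of 27 clusters, 24 were higher, 3 were lower and 6 were past the rule.

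**Figure D3:**
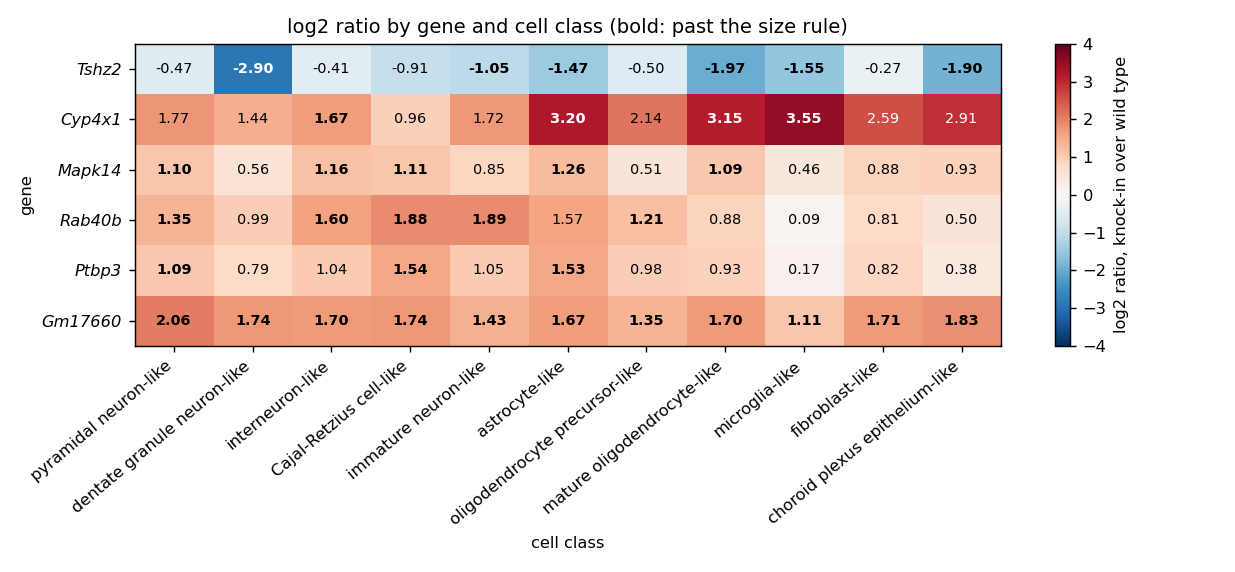
log2 ratio of the knock-in over the wild-type level (color scale, 0.1 added to both) for each gene (rows) in each of 11 classes (columns), in bold where the size rule is passed. Gm17660 is bold in 11 columns, while the microglia-like column holds the smallest values of Mapk14, Rab40b, Ptbp3 and Gm17660 and the largest of Cyp4x1.

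Taken by class, the number of the 6 genes past the rule ran from 1 in fibroblast-like cells to 5 in astrocyte-like cells. In astrocyte-like cells Cyp4x1, Mapk14, Ptbp3 and Gm17660 were higher and Tshz2 lower, beside 0.495% of 2019 genes higher and 0.248% lower. In pyramidal neuron-like cells 4 of the genes were higher (1.02% of 1967 genes), as were 4 in interneuron-like (0.478% of 2094) and 4 in Cajal-Retzius-like cells (0.99% of 2122). None of these 3 classes had Tshz2 past the rule.
In mature oligodendrocyte-like cells 3 were higher (0.254% of 1971 genes) and Tshz2 was lower (0.203%). In microglia-like cells Cyp4x1 and Gm17660 were higher (0.207% of 2414) and Tshz2 lower (0.166%). In immature neuron-like cells Rab40b and Gm17660 were higher (0.592% of 2197) and Tshz2 lower (0.364%).
The remaining classes had Gm17660 in common. It stood with Rab40b in oligodendrocyte precursor-like cells (0.349% of 2004 genes higher) and alone in fibroblast-like cells (0.381% of 2365). In dentate granule neuron-like cells Gm17660 was higher (0.201% of 1992) and Tshz2 lower (0.1%), and in choroid plexus epithelium-like cells the same 2 genes were past the rule (1.51% of 2119 higher and 2.22% lower).

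Microglia-like cells held an extreme of the ratio for 5 of the 6 genes. The log2 ratios of Mapk14, Rab40b, Ptbp3 and Gm17660 were each at their smallest there and that of Cyp4x1 at its largest. For Mapk14 and Ptbp3 this was also the class of highest level in both libraries. These are ratios of the class as a whole, whose 3 clusters had unequal shares of it in the 2 libraries and unlike ratios. In the clusters led by P2ry12, Inpp5d and Cst3, in that order, the log2 ratios of Gm17660 were 1.72, 1.18 and 0.08. Those of Ptbp3 were 0.09, 0.19 and -0.84 and those of Rab40b 0.98, 0.32 and 0.05. For Mapk14 they were 0.35, 0.40 and 0.78, and for Cyp4x1 3.71, 3.30 and 3.41.

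Ratios were also described in bins of detected genes. All cells were split into 5 bins of near equal size by detected genes, and each of the 6 genes kept its direction in all 5. The genes were chosen on this contrast, so the bins are a description and not a check. The log2 ratio of Tshz2 ran from -1.54 in the bin with fewest genes to -0.47 in that with most, and Gm17660 ran between 1.23 and 2.07. Cyp4x1 ran between 1.71 and 2.93, Mapk14 between 0.88 and 1.03, Rab40b between 0.74 and 1.15, and Ptbp3 between 0.62 and 0.95. The bins hold different mixtures of cell types, with 1778 wild-type and 1405 knock-in cells in the first and 960 and 2233 in the last. Detected genes ran from 265 to 2329 in the first bin and from 4334 to 13217 in the last. Their numbers were thus not alike within a bin, and their part in the ratios was not tested.

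**Figure D4:**
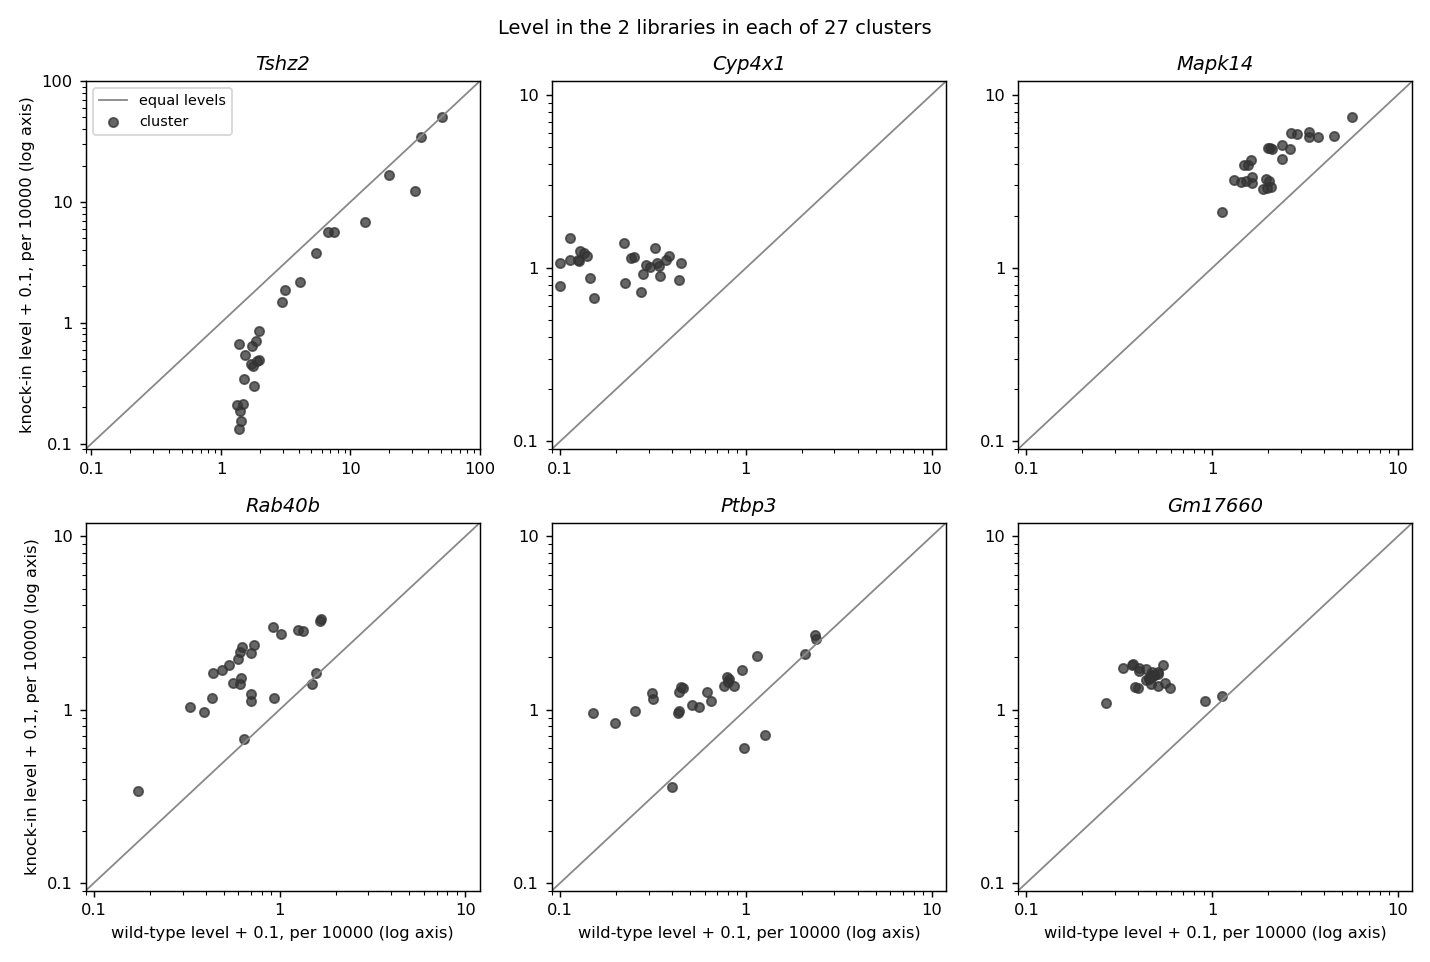
Level of each gene (plus 0.1, per 10000, log axes) in the wild-type library (horizontal) and the knock-in library (vertical), with 1 point for each of 27 clusters and a line of equal levels. Points of Tshz2 lie under the line, close to it at wild-type levels of 50.9 and 35.0 but well under it at 31.7. Those of Cyp4x1 and Gm17660 form flat bands above the line, and those of Mapk14 run above and along it.

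No gene next to the 6 on the chromosomes passed the rule in any class, and some overlapping genes had no values. Only Slc26a8 and Sparcl1 of these neighbours reached the level of 1 over all cells. The rule, which needs that level, thus says little about the others. Susd1, next to Ptbp3, had log2 ratios of -0.46 to 1.19 over the classes without being past the rule. Slc26a8 is an anion transporter gene that lies 1096 bases from Mapk14 on the opposite strand. It had the largest log2 ratio of the neighbours over all cells, at 1.90 and 2.59 per 10000 (log2 ratio 0.43, and 0.18 to 0.63 over the classes). Mapk13, a p38 gene on the other side of Mapk14, was at 0.0269 and 0.0083. Sparcl1, which lies 1503 bases from Gm17660 on the same strand and encodes a secreted matrix protein, was at 1.27 and 1.67 (log2 ratio 0.37, and -0.08 to 0.69 over the classes).
Wdr45b, 1680 bases from Rab40b on the same strand, was at 0.691 and 0.675, and the antisense gene Cyp4x1os that overlaps Cyp4x1 was at 0.0131 and 0.018. Whether the counting used strand is not given in the sources used here, so reads of overlapping genes on opposite strands may not be told apart. Within 1 Mb of the 6 genes, other genes whose mean level reached 0.2 per 10000 had median log2 ratios between -0.10 for Tshz2 (5 genes) and 0.13 for Cyp4x1 (10 genes), and none lay outside -0.23 to 0.43.

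None of the listed relatives and pathway partners of the 6 genes was past the rule over all cells. For comparison, the 8140 genes whose level reached 0.2 per 10000 in either library had a median log2 ratio of 0.05. The lists were chosen with earlier results known, and many of their genes were below the level of the rule.

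Over all cells the other teashirt genes were near equal in the 2 libraries. Tshz1 was at 0.379 and 0.378 per 10000 and Tshz3 at 0.659 and 0.678. Over the classes the log2 ratio ran from -1.10 to 0.59 for Tshz1 and from -0.90 to 0.50 for Tshz3. Neither was past the rule in any class. Of the other Cyp4 genes, 13 of 14 were in the table and Cyp4f13 alone reached the level of 0.2, at 0.242 and 0.267.

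In the p38 pathway Mapk14 alone was past the rule in more than 1 class. The other p38 kinases were low, Mapk11 at 0.0992 and 0.158 and Mapk12 at 0.0497 and 0.0634 per 10000. Of 10 upstream kinases and activators 9 reached 0.2, 4 higher and 5 lower, with a median log2 ratio of -0.01. Map2k6, which phosphorylates p38, was at 1.05 and 1.04, Map2k4 at 1.65 and 1.48, and Taok1, a kinase above them, at 2.20 and 2.06.
Among p38 substrates 8 of 12 genes in the table reached 0.2, with a median of 0.03. Mapkapk2, a kinase activated by p38, was at 0.341 and 0.354. The transcription factor gene Mef2a was at 1.498 and 1.52. Mef2c, a related factor, was at 2.72 and 3.53 and passed the rule in 1 class, the pyramidal neuron-like cells, with a log2 ratio of 1.35. Of 5 p38 phosphatases 3 reached the level, with a median of 0.16, Dusp16 being at 0.472 and 0.573.

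In the list of Rab40 and Cul5 ligase genes 9 of 10 reached 0.2, 7 of them higher and 2 lower, with a median log2 ratio of 0.16. Cul5, the scaffold, was at 1.07 and 1.05 per 10000, and Rab40c, a close relative of Rab40b, at 0.108 and 0.118. Socs2, another SOCS-box gene, had the largest ratio of the list, at 0.322 and 0.505. Among the splicing regulators 5 of 6 genes reached 0.2, with a median of -0.03, and Ptbp2, the neuronal relative of Ptbp3, was at 1.14 and 1.12.

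The genes most like each of the 6 were ranked by Pearson correlation over 22 values, 11 classes in each of the 2 libraries, among 7845 genes. Because each library gives 11 of the values, a gene that differs between the libraries in all classes correlates with any other such gene. Gm17660 was most like Gm14216 (0.92), Hdc (0.92) and Cyp4x1 (0.88), and Cyp4x1 was most like Gm17660, mt-Co2 (0.76) and Gm14216 (0.75). Mapk14 was most like Gm14216, Hdc and Ptbp3, each at 0.81.
For Ptbp3 the list was Mapk14 (0.81), Emc3 (0.79) and Dcaf12 (0.75). The genes nearest to Tshz2 were Runx1t1 (0.78), Fer (0.74) and Kit (0.73), and those nearest to Rab40b were Afm (0.83), Cnih2 (0.74) and Mrpl1 (0.74).

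Of the 4 strongest genes, 3 exceeded all of the 6 in ratio over all cells, with log2 ratios of 4.11 for Gm14216, 4.08 for Hdc and -2.71 for Abl1. Sec22b, at -1.12, had a smaller ratio than Cyp4x1 and Gm17660 but a level of 11.3 and 5.12 per 10000. Gm14216 and Hdc were higher and Abl1 lower past the rule in 11 of 11 classes, a breadth that only Gm17660 of the 6 genes had, and Sec22b was lower in 8. Among genes lower in the knock-in library, Tshz2 with 6 classes came after Abl1 and Sec22b. The difference between the genes has no test with 1 library per genotype.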

How the data were processed

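Per the labels' protocols, both libraries were made with 10x Genomics Chromium chemistry v3 and sequenced on an Illumina NovaSeq instrument. The authors deposited 1 table of whole-number values for 30223 genes in the cells of both libraries, treated here as a score corrected for depth: totals per cell lay in a narrow band, and the deposited name uses the short form of such an assay. The submitters' processing notes name GRCm38 and Seurat 3.0.0. Aligner, strand handling and filters on cells are not given in the sources used here. No count model and no test between libraries was used. Exact intervals are given for shares of cells alone, and the unknown depth leaves the precision of levels unknown.

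With scanpy 1.11.5 (Python 3.11.15), 2000 variable genes without the 6 genes, Pigv, the 4 strongest genes and sex-linked genes, 30 principal components and 15 neighbours were used, and Leiden clustering at resolution 1 gave 37 clusters, named by markers. Naming needed at least 3 markers, each in 25% of a cluster's cells at 1.5-fold the level elsewhere. Classes held 6413 wild-type and 7815 knock-in cells, 638 and 964 stayed unnamed, and endothelial and ependymal classes under 50 cells per library were not compared. Scrublet called 60 and 150 doublets, which were kept. The size rule and levels are defined in the text. Every gene that reached the level and detection limits was tested by the size rule. Genes named are the 6, Pigv, the 4 strongest, listed relatives and the 3 most alike per gene. Slc26a8, Mapk13, Sparcl1 and other neighbours were taken by position. The genes and lists were chosen with earlier results of these data known. The size rule was tried on simulated data for dentate granule neuron-like cells alone, with changes larger than its limit. The simulation had no library effect and no depth correction, so it does not show how the rule performs on these libraries. Alternatives changed the amount added, weights, filters, thresholds and clustering.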

Additional observations from a re-analysis of the deposited data

How the results depend on the processing

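Over all cells, no log2 ratio of the 6 genes changed sign under the settings tried. With clusters in place of classes, Ptbp3 was lower in the knock-in library in 3 of 27 and Rab40b in 1, and the other 4 genes kept their direction in all 27. Of 54 log2 ratios over all cells recomputed under alternatives 51 moved by less than 1.5-fold, as did 77 of 96 counts of classes. With 0.01 added in place of 0.1 the log2 ratio of Cyp4x1 was 2.81 and Ptbp3 was past the size rule in 5 classes. With 0.5 added the ratio of Cyp4x1 was 1.21 and Mapk14 and Ptbp3 were each past the rule in 1 class. With values of 1 set to 0 the log2 ratio of Gm17660 was 2.38, and Cyp4x1 was past the rule in 2 classes, Mapk14 in 8, Rab40b in 8 and Ptbp3 in 5. With a minimum level of 0.5, and equally with no minimum, Cyp4x1 was past it in 10 and Ptbp3 in 5. With a minimum of 2 it was 0 classes for Tshz2, Cyp4x1, Ptbp3 and Gm17660 and 2 for Rab40b, since fewer classes reach that level. At 1.5-fold it was 8 for Mapk14, 8 for Rab40b and 7 for Ptbp3. The cause of the other changes was not tested.

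Thinned to a total of 1000, values above 0 were found in these shares of wild-type and knock-in cells, in that order: Tshz2 21.5% and 11.5%, Cyp4x1 1.14% and 8.86%, and Mapk14 19.3% and 33.8%. The same shares were 7.96% and 15.9% for Rab40b, 6.53% and 12.1% for Ptbp3 and 3.99% and 13.0% for Gm17660. With every cluster given the same weight in both libraries the log2 ratio of Tshz2 was -0.79. Leaving out the cells with shared barcodes was chosen after seeing the data. No paired analysis was possible because each genotype is 1 library, and for the same reason no library could be left out. The Cyp4 and p38 kinase lists had too few genes at the level of 0.2 to give a median.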

Other observations

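In the endothelial-like class, too small to be compared, Tshz2 was at 10.7 per 10000 in 25 wild-type cells and 6.64 in 43 knock-in cells, above every larger class of its library. Ependymal-like cells, 18 and 14 in number, were the exception to the direction of Tshz2, at 2.10 and 2.48. Ptbp3 was at 2.28 and 2.19 in endothelial-like cells, against a higher knock-in level in each of the 11 larger classes. The unnamed cells were at 14.1 and 10.5 for Tshz2 and at 0.149 and 1.01 for Cyp4x1.

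Some genes outside the 6 and the strongest 4 also recurred across classes by the size rule. Ptgds, which encodes a prostaglandin D synthase, was higher in 6 classes, with 3.79 and 7.51 per 10000 over all wild-type and knock-in cells. The mitochondrially encoded mt-Co1 was higher in 3 classes, at 0.714 and 1.27, and the cadherin gene Cdh18 was lower in 3, at 2.33 and 1.87. The level of mt-Co2 was 0.00617 and 0.490.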
